A study of Mus musculus with 6 samples.

Results

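The Hox genes are the homeobox genes of the HoxA, HoxB, HoxC and HoxD clusters. They were taken here as all genes whose mouse symbol begins with Hoxa, Hoxb, Hoxc or Hoxd and a digit, and that had at least 1 probe set annotated to them alone. This gave 53 of the 45101 probe sets of the array and 36 of the 18193 genes tested. Of these, 33 were protein-coding and 3 were antisense genes (Hoxa11os, Hoxb5os and Hoxd3os1). Hoxb8 and Hoxd4 were read only by probe sets that they share with a neighbour.

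RNA came from the Braf-mutant mouse melanoma line 4434, read on 6 Affymetrix mouse arrays at day 20. In 3 arrays (+ dox) the cells had received doxycycline, which switched on a lentiviral vector for Oct4, Sox2, Klf4 and a blasticidin resistance gene, and the methods describe blasticidin selection of these cells. In the other 3 arrays (− dox) the cells carried the same vector, without doxycycline, and all cells of both groups also held a vector for the doxycycline-dependent transactivator. The comparison therefore covers doxycycline, selection and the 3 factors together in 1 cell line, and the labels do not say whether arrays of 1 group were separate cultures. The methods speak of independent experiments for the study's data in general, without naming the arrays. The p-values therefore cover the spread between these arrays alone, which could be technical.

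Hox proteins are homeodomain transcription factors that tell cells where along the head-to-tail axis of the body, or along a limb, they lie. Within a cluster the genes stand in the order in which they are used along the axis: low-numbered (anterior) genes act in the hindbrain and neck, central genes in the trunk, and high-numbered (posterior) genes in the lumbar and tail region and in the distal limb. Genes with the same number in different clusters are paralogues and overlap in function. Cultured cells often keep the Hox combination of the place they came from: Polycomb proteins keep the unused genes silent and Trithorax proteins keep the used ones active. Melanocytes arise from the neural crest, whose trunk part expresses Hox genes while its most anterior part does not.

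The values are log2 expression values after RMA (a normalisation of all arrays together), and a change is the + dox mean minus the − dox mean on this scale, given with its SE. A gene was read through its brightest probe set, since probe sets differ in brightness for reasons other than RNA amount, and levels are not ranked between genes. A gene was called above background in a group if a probe set of it exceeded, on all 3 arrays, the 37.5th percentile of all probe sets of that array, which lay between 4.51 and 4.56. Of 78 probe sets for olfactory and vomeronasal receptors, genes restricted to sensory neurons, 10 exceeded this level in − dox cells and 9 in + dox cells, so a value just above it does not by itself show expression. The stricter 95th percentile of those receptor probe sets (5.02 to 5.22) is given beside it.

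The 6 arrays had column medians between 5.33 and 5.37. Of 8 melanocyte markers, Tyr, Tyrp1 and Mlana were below background on all 6 arrays, while Sox10 (6.12 to 6.46) and Pmel (5.25 to 5.43) were above both background levels on all of them. Mitf, the regulator of melanocyte genes, was at 8.15, 6.87 and 6.67 in − dox cells and at 6.41, 6.83 and 6.17 in + dox cells. The summed log2 level of the 8 markers ranged from 38.26 to 39.29 in − dox cells and from 37.63 to 38.87 in + dox cells. Muscle marker sums were apart between groups: the sum over 6 of them was 49.86 to 52.93 in − dox cells and 36.82 to 46.72 in + dox cells. Of the 6, 5 were lower at an unadjusted p under 0.05 (83.3%, against 10.6% of all genes). Past the adjusted threshold there were 0, and none was at background on all arrays. Sums over 7 keratinocyte markers were 29.47 to 30.55 and 33.83 to 40.80, a difference carried by Krt14 (called, change 3.67, adjusted p = 0.00173 by limma) and Perp (2.98, 6.28 and 9.36 in + dox arrays 1 to 3, 3.01 to 3.12 in − dox). The median change of the 7 was 0.07, and Krt1, Trp63 and Cdh1 were below background throughout. Of the 3 Krt14 probe sets 1 had a change of the opposite sign. Over 17 alternatives the change of Krt14 ran from 2.01 to 3.94, and the gene was called in all 17. Sums over 5 endothelial markers were 20.63 to 21.63 and 23.08 to 24.86, with Tek changing most (1.61, adjusted p = 0.219), 0 called, and Pecam1 and Tie1 below background throughout. Sums over 6 immune markers were 27.05 to 29.26 and 29.15 to 32.09, with changes of 1.24 for Cd68 and 1.17 for Itgam, 0 called, and Ptprc below background throughout. Sums over 8 fibroblast markers were 42.97 to 44.28 in − dox cells and 41.78 to 43.35 in + dox cells, with 0 called. Among them Col3a1 changed by −1.35 and Dcn by 0.85, both with groups apart, and Col1a1, Thy1 and Lum were below background throughout. The part of these genes in the Hox results below was not tested. In several genes + dox array 1 lay nearer to the − dox arrays than + dox arrays 2 and 3 did, and the calls made without it are given after the clusters.

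The Hox combination of the cells was read first. Of 33 protein-coding Hox genes, 20 were above background in − dox cells and 18 in + dox cells. The 18 were above background in both groups, 13 were above it in neither, 2 (Hoxa2 and Hoxb13) were above it only in − dox cells, and 0 only in + dox cells. For comparison, 12545 of all 18193 genes, each read through its brightest probe set, were above background in both groups. That is a larger share than the 18 of 33 Hox genes, a difference that was not tested. Of all 34945 probe sets of 1 gene, 66.2% were above it in − dox cells and 66.3% in + dox cells. By cluster the − dox and + dox counts were 6 and 5 of 9 for HoxA, 7 and 6 of 9 for HoxB, 4 and 4 of 7 for HoxC, and 3 and 3 of 8 for HoxD. By position they were 4 and 3 of 7 anterior genes (groups 1 to 3), 8 and 8 of 12 central genes (groups 4 to 8) and 8 and 7 of 14 posterior genes (groups 9 to 13). At the stricter receptor level 15 Hox genes were above in − dox cells and 13 in + dox cells, all 13 among the 15, and the pair lost was Hoxa3 and Hoxb2. Of all probe sets of 1 gene, 57.9% and 57.8% were above that level. By position the − dox and + dox counts there were 3 and 1 anterior, 5 and 5 central and 7 and 7 posterior genes. By cluster they were 5 and 4 for HoxA, 5 and 4 for HoxB, 2 and 2 for HoxC and 3 and 3 for HoxD. In both groups the cells thus had anterior, central and posterior Hox genes of several clusters above background. At the stricter level the only anterior gene left in + dox cells was Hoxb3. At either level no Hox gene was above background in + dox cells alone. At the 99th percentile of the receptors 10 genes were above it in each group, with Hoxb5 above it in − dox cells alone and Hoxd9 in + dox cells alone. Hoxc13 was above the main level in + dox cells alone where 2 of 3 arrays sufficed or + dox array 3 was left out.

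**Figure D1:**
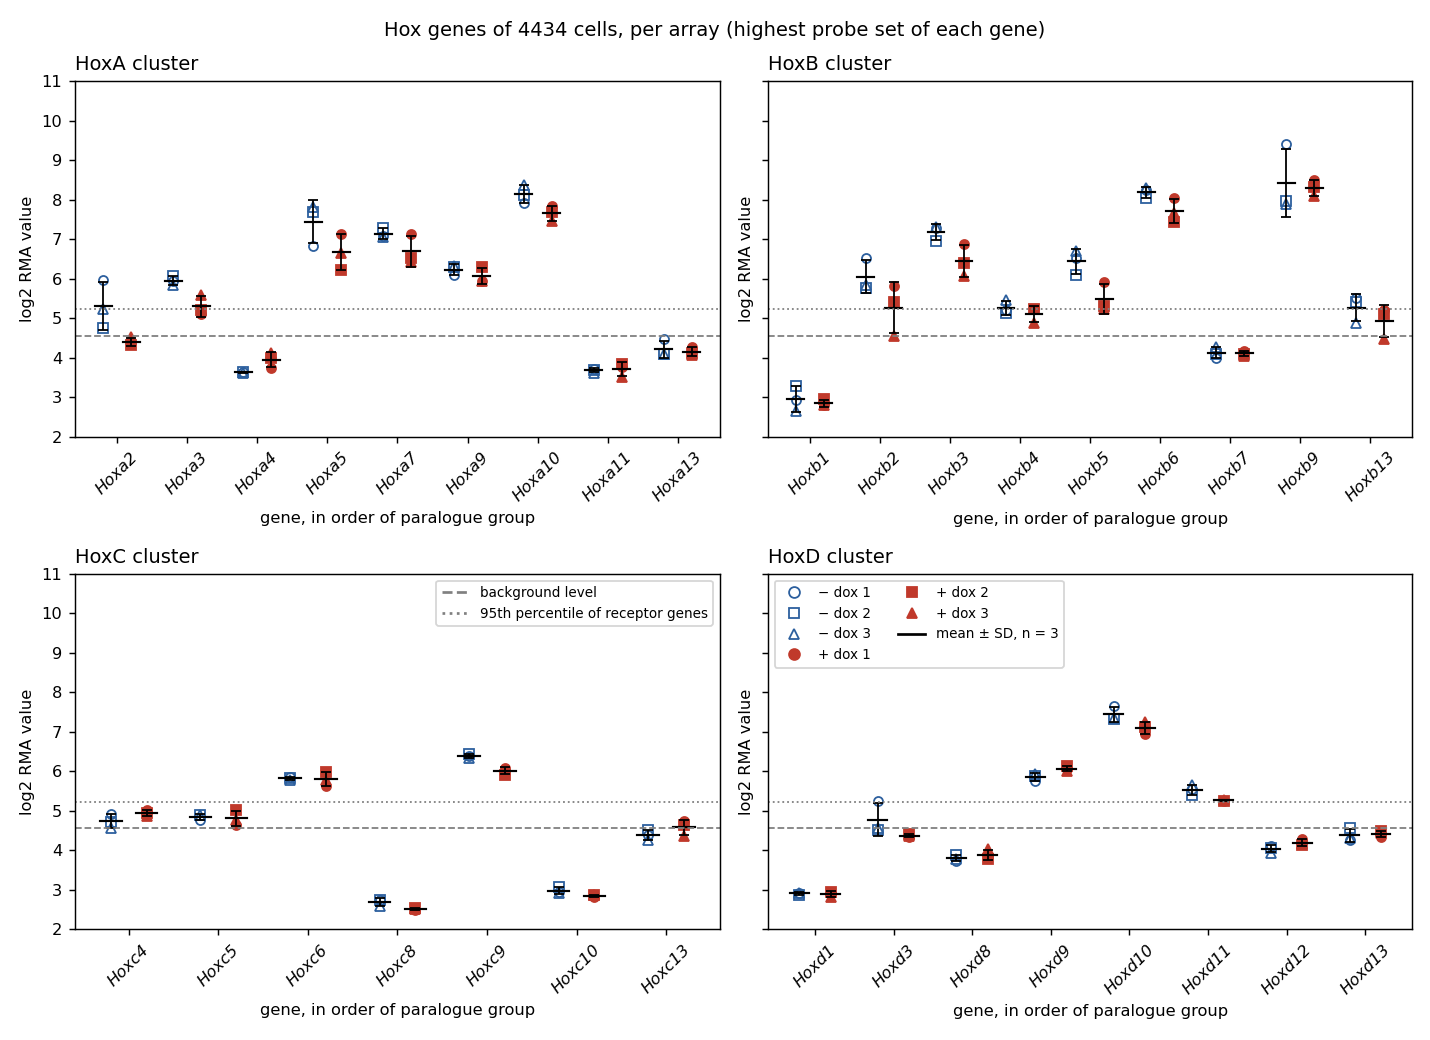
Log2 RMA value (y axis) of the 33 protein-coding Hox genes in order of paralogue group (x axis), 1 panel per cluster, with − dox arrays as open blue and + dox arrays as filled red symbols, and bars for mean ± SD of 3 arrays. The dashed line marks the highest background level of the 6 arrays (4.56) and the dotted line the highest 95th percentile of the receptor probe sets (5.22). The red symbols of Hoxa2 lie below the dashed line, while 18 genes are above background in both groups.

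None of the 36 Hox genes passed the test between groups (0 higher and 0 lower, limma with Benjamini-Hochberg adjustment over all genes), against a background of 4.87% of all genes called (3.07% higher and 1.80% lower). The smallest adjusted p of a Hox gene was 0.0629, for Hoxa3. At an unadjusted p under 0.05 there were 10 of 36, 9 of them lower and 1 higher, against 21.7% of all genes (10.6% lower and 11.1% higher). The groups did not overlap in 11 Hox genes that were lower in + dox cells and 3 that were higher, against 12.6% of all genes lower and 14.3% higher (26.9% in either direction). The median change of the 33 protein-coding genes was −0.15, with 25 below 0 and 8 above, against a median of 0.01 over all genes and −0.01 over all genes above background in both groups. The 18 Hox genes above background in both groups had a median change of −0.36, with 16 below 0, and the 13 above it in neither had one of −0.01. Hox genes were thus more often lower than higher in these + dox arrays, by amounts that did not pass the test in any gene. For 26 of the 33 (78.8%), and for 12 of the 18 above background in both groups (66.7%), the 95% interval of the change excluded a 2-fold difference in either direction, against 82.9% of all genes. The 26 include the genes above background in neither group. A narrow interval between background readings says little about RNA amount. The highest upper bound of any Hox gene was 0.85, for Hoxb9, and the lowest lower bound −1.63, for Hoxb2.

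The clusters differed in their medians. The median change was −0.45 in HoxA (7 of 9 genes below 0), −0.34 in HoxB (9 of 9), −0.04 in HoxC (5 of 7) and 0.01 in HoxD (4 of 8). By position it was −0.65 over the 7 anterior genes, all of them below 0, −0.10 over the 12 central genes and −0.125 over the 14 posterior genes. These medians are descriptions, and whether the clusters or positions differ from each other was not tested. Set against the − dox mean of each gene, the HoxA median was −0.28, −0.46 and −0.35 in + dox arrays 1, 2 and 3, and between −0.06 and 0.01 in the − dox arrays. In HoxB the + dox values were −0.15, −0.16 and −0.53, and − dox array 2 was at −0.15 too. In HoxD all 6 arrays lay between −0.04 and 0.01. The HoxA median was therefore below 0 on each + dox array, with 6, 6 and 8 of 9 genes below 0 on arrays 1, 2 and 3. The HoxB medians overlapped between groups, and those of HoxD stayed near 0. The − dox arrays make up the mean they were set against, which draws their medians towards 0. The genes of a cluster are not replicates.

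**Figure D2:**
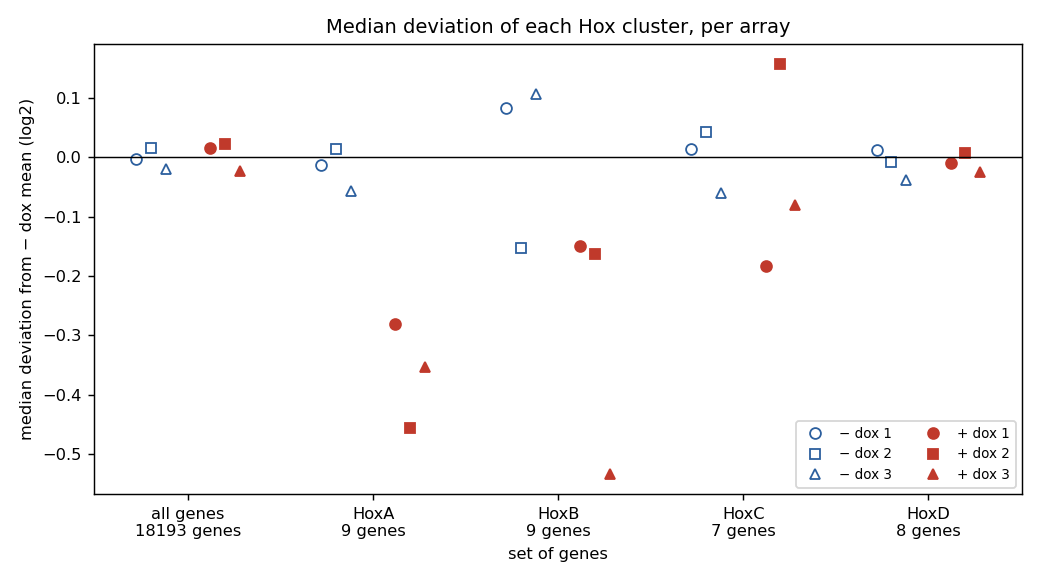
Median over the genes of a cluster of the deviation from each gene's − dox mean (log2, y axis), 1 symbol per array, for all 18193 genes and for the HoxA, HoxB, HoxC and HoxD clusters (x axis), with − dox arrays in open blue and + dox arrays in filled red. The HoxA medians of + dox arrays 1 to 3 are −0.28, −0.46 and −0.35, and those of HoxD lie between −0.04 and 0.01 on all 6 arrays.

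In HoxA the anterior members were among the genes farthest apart. Hoxa2, which sets the identity of the second pharyngeal arch and hindbrain segments, had values of 5.96, 4.75 and 5.22 in − dox arrays 1 to 3 and of 4.37, 4.33 and 4.52 in the + dox arrays. All + dox arrays were below all − dox arrays and below background, with a change of −0.90 (SE 0.29, adjusted p = 0.134), a 1.87-fold lower mean. The Hoxa2 change was −0.58 without − dox array 1. Hoxa3, needed for thymus and parathyroid formation, was at 5.93, 6.06 and 5.84 without doxycycline and at 5.10, 5.20 and 5.59 with it. Again the groups did not overlap (change −0.65, SE 0.15, adjusted p = 0.0629), and all 4 probe sets of the gene had a change below 0, from −0.65 to −0.12 (−0.415 for their mean). Among them, the probe set at 2.94 to 3.37 was below background in both groups. Hoxa4, a gene of the neck region, was below background in both groups, at 3.61 to 3.64 and 3.75 to 4.11.

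Upstream sequences were taken for the HoxA genes whose groups were apart and lower, so the choice followed the result. Those of Hoxa10 held 0 matches to either motif described below and are not printed. Whether a match goes with a lower value was not tested. The sequences upstream of both anterior genes are shown because they hold the matches to motifs of Hox partner complexes found in HoxA coding genes. They are the 250 bases before an annotated start in RefSeq (GRCm38.p6), from chr6:52164832-52165081 for Hoxa2 and chr6:52213068-52213317 for Hoxa3, both on the minus strand, written 5′ to 3′ with motif matches in capitals:
Hoxa2: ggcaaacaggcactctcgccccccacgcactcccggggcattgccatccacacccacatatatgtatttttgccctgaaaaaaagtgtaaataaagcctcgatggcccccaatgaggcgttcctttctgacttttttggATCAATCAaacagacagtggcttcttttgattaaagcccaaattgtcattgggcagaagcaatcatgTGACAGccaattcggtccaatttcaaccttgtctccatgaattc
Hoxa3: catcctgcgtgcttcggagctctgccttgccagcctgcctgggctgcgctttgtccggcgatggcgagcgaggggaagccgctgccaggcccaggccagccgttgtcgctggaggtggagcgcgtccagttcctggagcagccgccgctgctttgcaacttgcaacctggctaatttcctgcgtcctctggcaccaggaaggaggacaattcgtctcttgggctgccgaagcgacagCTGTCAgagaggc
The motifs searched on both strands were TGATTNAT, the type bound by a Hox protein with a Pbx partner, and TGACAG, the type bound by Meis proteins. No match overlapped another. Hoxa2 held 1 match to TGATTNAT, 111 bases before the start on the opposite strand, and 1 to TGACAG, 44 bases before it. Hoxa3 held 1 match to TGACAG, 13 bases before the start on the opposite strand. Over all RefSeq promoters of this length 2.82% held TGATTNAT and 15.9% held TGACAG, and of 23 promoter entries for 21 of the 36 Hox genes 2 and 3 did. The Hoxa2 stretch held 6 CpG dinucleotides, as many as the median promoter, and that of Hoxa3 held 18. A match is a description of the letters and not a bound site.

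The central and posterior HoxA genes above background had lower means with doxycycline too. Hoxa5, which acts in lung and cervical-thoracic skeleton, was at 6.83, 7.69 and 7.81 in − dox cells and 7.14, 6.22 and 6.64 in + dox cells, so that the groups overlapped through both arrays numbered 1 (change −0.78, SE 0.33, adjusted p = 0.236). Its other probe set, also above background, read 6.41, 6.82 and 6.71 against 6.61, 6.33 and 6.48, a change of −0.17, and the mean of both gave −0.475. Hoxa7, a trunk gene, had 7.08, 7.29 and 7.05 against 7.13, 6.52 and 6.42, with + dox array 1 among the − dox values (change −0.45, SE 0.20, adjusted p = 0.260). Hoxa10, a gene of the lumbar region and the uterus, was at 7.92, 8.12 and 8.37 against 7.83, 7.68 and 7.46. The Hoxa10 groups did not overlap (change −0.48, SE 0.15, adjusted p = 0.135). Its other probe set was below background in both groups, with a change near 0 (−0.0033). The mean of both, which includes these background readings, gave −0.24.

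Hoxa9, a posterior gene known for its role in blood progenitors and leukaemia, gave different answers in its 2 probe sets. The brightest read 6.08, 6.30 and 6.31 in − dox cells and 5.95, 6.30 and 5.94 in + dox cells, a change of −0.17 with overlapping groups (SE 0.14, adjusted p = 0.552). The other read 6.70, 5.92 and 6.33 against 5.42, 5.40 and 5.19, a change of −0.98 with no overlap (SE 0.20, adjusted p = 0.0541 in the fit over probe sets). With the mean of both probe sets per gene, Hoxa9 passed the test (change −0.57, adjusted p = 0.0497), the only Hox gene to do so under that setting. That is 2.78% of the Hox genes, where 4.33% of all genes were called (1.48% lower). Over all its alternatives the adjusted p of Hoxa9 ran from 0.0497 to 1, the latter in the test against a 2-fold change. Hoxa11 and Hoxa13, genes of the forearm and of digits and hindgut, were below background throughout, with changes of 0.03 and −0.06.

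The 9 HoxB genes all had means below those of − dox cells, though the groups were apart in only Hoxb3 and Hoxb5. Hoxb3, a hindbrain and pharyngeal gene, was at 7.29, 6.96 and 7.30 in − dox cells and at 6.88, 6.39 and 6.07 in + dox cells (change −0.74, SE 0.22, adjusted p = 0.114). Its other probe set, also above background, read 6.52, 6.44 and 6.65 against 6.46, 6.47 and 6.15, overlapping with a change of −0.18, and the mean of both gave −0.46. Hoxb5, a trunk gene that also acts in neural crest and gut, was at 6.52, 6.08 and 6.71 against 5.92, 5.31 and 5.23, the lowest change among the Hox genes (−0.95, SE 0.24, adjusted p = 0.0771, 1.93-fold lower). In the brightest probe sets of both genes + dox array 1 was the one nearest to the − dox cells. Hoxb2, which patterns facial nerve precursors of the hindbrain, was at 6.53, 5.77 and 5.84 against 5.81, 5.42 and 4.56, where + dox array 1 overlapped the − dox range and + dox array 3 reached the background level (change −0.78, SE 0.35, adjusted p = 0.268, and −0.43 without + dox array 3). Hoxb6, a trunk gene, was at 8.23, 8.03 and 8.29 against 8.03, 7.44 and 7.65, touching in 1 value (change −0.48, SE 0.17, adjusted p = 0.165).

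Other HoxB genes were closer together. Hoxb9, a gene of the rib-bearing trunk, was at 9.40, 7.96 and 7.89 in − dox cells and at 8.49, 8.31 and 8.09 in + dox cells. Here − dox array 1 stood far above the other − dox arrays, and the change of −0.12 (SE 0.40) became 0.28 without both arrays numbered 1. Hoxb13, the most posterior gene of the cluster, expressed in tail bud and prostate, was at 5.50, 5.42 and 4.87 against 5.21, 5.10 and 4.46, and lost its place above background through + dox array 3 alone (change −0.34, adjusted p = 0.509, and −0.11 without that array). Hoxb4, known for expanding blood stem cells, was at 5.20, 5.13 and 5.45 against 5.22, 5.23 and 4.87. Hoxb1 and Hoxb7 were below background in both groups, with changes of −0.10 and −0.02. A probe set that Hoxb8 shares with Hoxb7, and that therefore stands outside the 36 genes, read 8.93, 7.97 and 7.82 against 7.86, 6.83 and 6.40 (change −1.21, SE 0.44, adjusted p = 0.213 in the fit over probe sets). It was above background on all arrays, and its groups overlapped by − dox array 3 and + dox array 1.

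**Figure D3:**
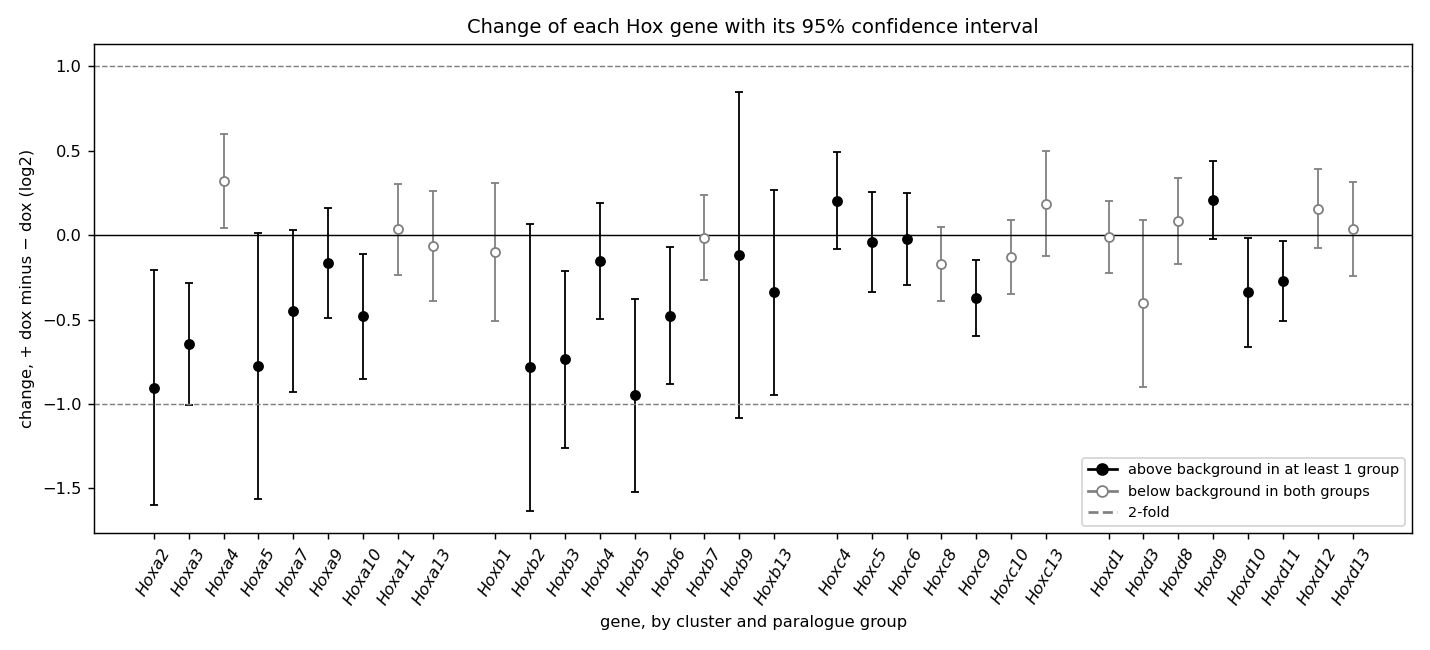
Change between + dox and − dox cells (log2, y axis) with its 95% interval for each of the 33 protein-coding Hox genes (x axis, by cluster and paralogue group), open grey where the gene was below background in both groups, with dashed lines at a 2-fold change. All 9 HoxB genes lie below 0, from −0.95 for Hoxb5 to −0.02 for Hoxb7, and no gene passed the adjusted test.

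HoxC had a median change near 0, and 1 gene above background had groups apart. Hoxc9, which defines thoracic motor neurons, was at 6.40, 6.43 and 6.33 in − dox cells and at 6.09, 5.91 and 6.04 in + dox cells, with tight replicates and no overlap (change −0.37, SE 0.09, adjusted p = 0.0779, 1.30-fold lower). Hoxc4, a cervical gene, was at 4.93, 4.72 and 4.57 against 5.02, 4.95 and 4.86, with 1 overlapping array and a change of 0.20 (SE 0.12, adjusted p = 0.398). Hoxc5 was at 4.76, 4.89 and 4.90 against 4.64, 5.02 and 4.77, a change of −0.04, and it was the only Hox gene whose probe sets differed in sign. Hoxc6, a gene of the thoracic region, was at 5.86, 5.83 and 5.78 against 5.64, 5.98 and 5.78, a change of −0.02 whose 95% interval ran from −0.29 to 0.25. Hoxc8, Hoxc10 and Hoxc13 were below background in both groups, with changes of −0.17, −0.13 and 0.19, so that the non-overlapping groups of Hoxc8 (2.59 to 2.75 against 2.50 to 2.55) and Hoxc10 (2.92 to 3.08 against 2.82 to 2.87) are differences between background readings.

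In HoxD the 3 neighbouring genes 9 to 11 were above both background levels in all arrays, and their changes differed in sign. Hoxd9, a lumbar and limb gene, was at 5.75, 5.89 and 5.94 in − dox cells and at 6.05, 6.13 and 6.02 in + dox cells. It was the only Hox gene above background whose groups were apart with higher + dox values (change 0.21, SE 0.10, adjusted p = 0.280). Hoxd10, which acts in lumbar motor neurons and limb, was at 7.65, 7.33 and 7.34 against 6.94, 7.12 and 7.24 (change −0.34, SE 0.13, adjusted p = 0.206). Hoxd11, which shapes the forearm, was at 5.54, 5.41 and 5.66 against 5.25, 5.26 and 5.28 (change −0.27, SE 0.10, adjusted p = 0.174). Hoxd12 and Hoxd13, genes of the digits, and Hoxd1 and Hoxd8 were below background in both groups, with changes between −0.01 and 0.16.

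Hoxd3, an anterior gene, was at 5.26, 4.51 and 4.56 against 4.34, 4.42 and 4.36. Because − dox array 2 was under its background level of 4.56, the gene was not called above background in either group, and the change of −0.40 (SE 0.21, adjusted p = 0.330) became −0.16 without − dox array 1. A probe set shared by Hoxd4 and Hoxd3 read 6.59, 6.49 and 6.56 against 6.26, 6.38 and 6.07, without overlap (change −0.31, SE 0.11, adjusted p = 0.202 in the fit over probe sets), and a second one had a change of 0.06. Both were above background on all arrays. Of the antisense genes, Hoxb5os (5.77 to 6.13 against 5.74 to 6.36, change 0.05) and Hoxd3os1 (5.02 to 5.20 against 4.62 to 5.39, change −0.03) were above background in both groups and Hoxa11os, with a change of 0.21, in neither. A second Hoxd3os1 probe set, at 4.75, 4.57 and 5.25 against 4.56, 4.17 and 4.14, had groups apart and a change of −0.57 (SE 0.21). The antisense gene Hoxb5os stood at a change of 0.05 where its neighbour Hoxb5 had −0.95, a difference that was not tested.

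The calls depended on the arrays numbered 1. Without + dox array 1, Hoxa7 (−0.67, adjusted p = 0.0302), Hoxb3 (−0.95, 0.0273), Hoxb5 (−1.17, 0.0266) and Hoxb6 (−0.64, 0.0441) passed the test, all of them lower. These are 4 of 36 genes or 11.1%, where 9.07% of all genes were called (3.83% lower). Without − dox array 1 in its place, 6.27% of all genes and 0 Hox genes passed, and without each of the other 4 arrays in turn 0 Hox genes did. Over all alternatives the adjusted p of these 4 genes reached 1, in the test against a 2-fold change. With both arrays numbered 1 left out, 7 of 36 passed (19.4%, against 20.1% of all genes, with 6 or 16.7% lower against 9.79%): Hoxa5 (−1.32, adjusted p = 0.00298), Hoxa7, Hoxa10, Hoxb3, Hoxb5 and Hoxb6 were lower and Hoxa4 higher, the last at background level. In both settings the share of Hox genes called was close to that of all genes, while the share called lower was above it. Across the 33 Hox genes the values of 2 arrays correlated at r of 0.965 to 0.989 within − dox, 0.972 to 0.984 within + dox and 0.947 to 0.983 between groups. These correlations across genes rest on probe brightness that all arrays share, and the genes are not independent replicates.

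Proteins that bind DNA with Hox proteins were counted next. The TALE cofactors Pbx, Meis, Prep and Tgif bind as partners of Hox proteins and sharpen their choice of sites. Of 10 measured of 11, 0 passed the test, 5 were lower and 1 higher at an unadjusted p under 0.05 (50% and 10%, against 10.6% and 11.1% of all genes), and the median change was −0.345 (0.01 over all genes). Meis1 was at 6.72, 6.71 and 6.62 in − dox cells and at 6.15, 6.38 and 6.19 in + dox cells (change −0.44, SE 0.10, adjusted p = 0.0600). Pbx2 was at 9.32, 8.99 and 8.95 against 8.54, 8.38 and 7.95 (change −0.80, SE 0.18, adjusted p = 0.0618). In the brightest probe sets of both genes the groups were apart, with every + dox array lower. Of the 3 Meis1 probe sets 1 had a change of the opposite sign.

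Chromatin regulators that hold Hox clusters silent or active were counted in the same way. Of 29 measured Polycomb subunits of 31 listed 0 passed, and the median change was −0.16 with 23 below 0. At an unadjusted p under 0.05, 5 were lower and 1 higher, together 20.7% and near the 21.7% of all genes. By direction these were 17.2% lower and 3.45% higher, against 10.6% and 11.1% of all genes. Cbx6, a Polycomb chromodomain protein, had 9.79, 9.97 and 10.10 against 9.47, 8.91 and 8.73 (change −0.92, adjusted p = 0.0573), and Phc2, a polyhomeotic subunit, had 11.76, 11.87 and 11.72 against 10.96, 11.24 and 11.39 (change −0.59, adjusted p = 0.0579). The list of Trithorax genes and H3K27 demethylases also held other chromatin genes, such as Ctcf, Dot1l and Psip1. Of its 16 measured genes (17 listed) 2 passed, both lower, where 1.80% of all genes were called lower. The median change of the list was −0.28 with 14 below 0. At an unadjusted p under 0.05, 6 were lower (37.5%, against 10.6% of all genes) and 0 higher (against 11.1%). Kmt2d, an H3K4 methyltransferase of enhancers, was at 10, 9.58 and 9.75 against 8.93, 8.95 and 9.25 (change −0.73, SE 0.15, adjusted p = 0.0465). Psip1, which tethers the Mll complex to chromatin, was at 11.69, 11.58 and 11.55 against 11.15, 10.78 and 10.74 (change −0.72, SE 0.13, adjusted p = 0.0380). Both were lower in each + dox array than in any − dox array. The call of Kmt2d was lost on leaving out any 1 array (adjusted p up to 0.166), and that of Psip1 on leaving out any but + dox array 1 (up to 0.142).

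Inducers of Hox genes were listed together with other homeobox factors, such as Pdx1. The list holds Cdx factors, signals such as Wnt3a, Fgf8 and Gdf11, and genes of retinoic acid signalling, including its breakdown. It gave 0 calls among 20 measured, with a median change of 0.03. At an unadjusted p under 0.05, 3 were lower and 2 higher (15% and 10%, against 10.6% and 11.1% of all genes). The largest change in the list was that of Egr2, at 7.30, 4.31 and 4.69 against 6.12, 6.40 and 6.24 (0.82, SE 0.74, adjusted p = 0.598). Egr2 was called without − dox array 1 and without both arrays numbered 1, where 6.27% and 20.1% of all genes were called. Pdx1, below background in both groups, had 3.63, 3.76 and 3.90 against 4.05, 4.26 and 4.16 (change 0.39, adjusted p = 0.102), and Cyp26b1, which degrades retinoic acid, had 5.63, 6.11 and 5.84 against 6.23, 6.39 and 6.67 (change 0.57, adjusted p = 0.113). Among 16 measured genes listed as head position factors, which include Otx, Emx, Dlx and Msx genes, 0 passed (median change 0.00). At an unadjusted p under 0.05, 1 was lower (6.25%, against 10.6% of all genes). The smallest p were those of Dlx3, a gene of jaw and skin that was at 5.48, 5.70 and 5.47 against 5.37, 5.12 and 5.08 (change −0.36, adjusted p = 0.151), and of Emx2, a forebrain gene below background at 2.81, 2.97 and 2.66 against 2.94, 3.04 and 3.10 (change 0.21, adjusted p = 0.345).

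Among 18 measured trunk and limb position factors 1 was called higher and 1 lower, against 3.07% and 1.80% of all genes. Tbx15, a T-box factor of trunk skin and limb mesenchyme, was at 7.87, 7.62 and 7.94 in − dox cells and at 8.29, 8.49 and 8.54 in + dox cells (change 0.63, SE 0.13, adjusted p = 0.0448). Prrx2, a paired-type homeobox factor of limb and craniofacial mesenchyme, was at 6.56, 7.33 and 7.10 against 5.93, 5.05 and 5.27 (change −1.58, SE 0.28, adjusted p = 0.0342, 2.99-fold lower). Both had groups apart. Of 12 measured genes next to the clusters, 1 was called, higher: Lnpk, which lies beside HoxD, was at 9.10, 9.26 and 9.28 against 9.75, 10.01 and 9.87 (change 0.66, SE 0.11, adjusted p = 0.0275). Its other 2 probe sets had the opposite sign, and with the most variable one its change was −0.13. The calls of Tbx15, Prrx2 and Lnpk were lost on leaving out − dox array 2 or 3 or + dox array 2 or 3 (adjusted p up to 0.165, 0.135 and 0.110), and that of Tbx15 also without − dox array 1.

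**Figure D4:**
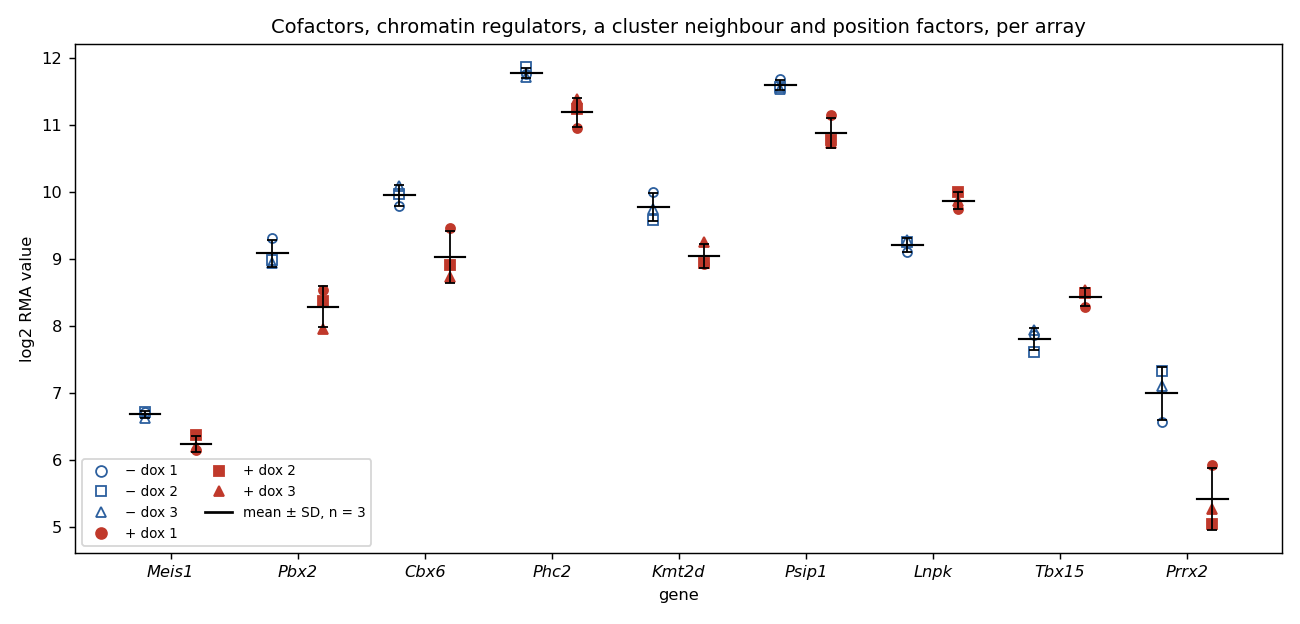
Log2 RMA value per array of the named cofactors, chromatin regulators, cluster neighbour and position factors, with − dox arrays in open blue and + dox arrays in filled red symbols, and bars for mean ± SD of 3 arrays. Kmt2d, Psip1 and Prrx2 were called lower, Tbx15 and Lnpk higher, and Meis1, Pbx2, Cbx6 and Phc2 did not pass the test although their groups are apart.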

How the data were processed

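Per the labels and the study's methods, each group of 4434 cells had 3 Affymetrix mouse arrays. The deposited values are log2 expression values that the authors made with RMA in Chipster (version not given in the sources used here). There were 45101 probe sets and 0 missing values. Array controls were left out, and 34945 probe sets with 1 gene symbol gave 18193 genes, each read through the probe set with the highest mean. Under R 4.3.3, limma 3.58.1 fitted each gene (lmFit, then eBayes, group alone in the design, two-sided), and genes were called at a Benjamini-Hochberg adjusted p under 0.05, adjusted over all 18193. Code was tested on simulated data. The members and gene lists were chosen with earlier results of these data known.

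The design set the background level at the 95th percentile of receptor probe sets where 100 or more exist and otherwise at the 37.5th percentile of all probe sets. With 78 found, the latter was used, and the receptor level was added as an alternative after seeing the data. Values of all arrays were given for the 20 protein-coding Hox genes above background and for other lists' called genes, or the 2 with the smallest p. Second probe sets of a gene, Hoxd3, Egr2, the antisense genes and the shared probe sets were singled out after their values were seen. Alternatives were a replicate block, other probe set rules, filters, normalisations and thresholds, and leaving out arrays.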

Additional observations from a re-analysis of the deposited data

How the results depend on the processing

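The count of Hox genes called was 0 under the replicate block, the most variable probe set, the filters on dim genes, moderated variances with trend, quantile normalisation, median centring, an adjusted threshold of 0.01, a test against a 2-fold change and all probe sets, and 1 with the mean of all probe sets. It ranged from 0 to 4 on leaving out 1 array and was 7 without both arrays numbered 1. Of all genes 886 were called, against 303 with the replicate block and 788 with the mean of all probe sets. The count was 128 at 0.01, 51 against a 2-fold change, 119 to 1650 without 1 array and 3658 without both arrays numbered 1. The 5 calls in the other lists became 0 with the block, at 0.01 and against a 2-fold change, 3 with the mean of probe sets, with the most variable one and with trend, 0 to 7 without 1 array and 29 without both arrays numbered 1. These lists held 10, 29, 16, 20, 16, 18 and 12 measured genes. Of all genes 4.87% were called, and 20.1% without both arrays numbered 1. Whether the lists together differ from all genes was not tested. The arrays share replicate numbers, and deviations of same-numbered arrays correlated at −0.12, −0.22 and 0.08. With 3 arrays a group these values cannot settle whether the numbers pair the samples. The block lowered the count of calls. It lowered the SE of some Hox genes (Hoxb13 from 0.25 to 0.10, Hoxb2 from 0.35 to 0.21) and raised that of others (Hoxa5 from 0.33 to 0.38). At the 99th percentile of the receptors 10 Hox genes were above background in each group, 1 of them in each group alone. Of 36 Hox genes 25 kept 1 sign under all alternatives (18 lower, 7 higher). The other 11 had changes within 0.12 of 0, and leaving out 1 array moved them across it: Hoxa11 from −0.032 to 0.13, Hoxa13 from −0.13 to 0.06, Hoxb1 from −0.255 to 0.065, Hoxb5os from −0.11 to 0.20, Hoxb7 from −0.078 to 0.057, Hoxb9 from −0.38 to 0.37, Hoxc5 from −0.145 to 0.045, Hoxc6 from −0.11 to 0.057, Hoxd1 from −0.04 to 0.03, Hoxd3os1 from −0.19 to 0.19 and Hoxd13 from −0.028 to 0.13. Without both arrays numbered 1, Hoxb5os was at −0.04, Hoxb9 at 0.275 and Hoxc6 at 0.075. With the mean of probe sets Hoxc5 was at 0.019, with quantile normalisation Hoxc6 was at 0.00056, and with the most variable probe set Lnpk was at −0.13 and Hoxd3os1, whose sign held, at −0.57. The causes were not tested. The 3 arrays a group limit the precision.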
